A study of Caenorhabditis elegans with 19 samples.

Results

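A set of 10 genes of the glutathione and oxidative stress pathway was followed in gonads dissected out of young adult Caenorhabditis elegans hermaphrodites: 8 glutathione S-transferase genes (gst-1, gst-4, gst-5, gst-7, gst-10, gst-24, gst-36 and gst-42), gcs-1 and skn-1. They were named gene by gene, and all 10 were found among the 19985 genes of the protein-coding count table. The set was chosen by what these data had already shown, namely the high gst-24 counts in auxin libraries of the RPOA-2 strain. Values of that strain's comparison are therefore given as a description without a test, and tests are given for the other strains. Results of the series were known when the set was chosen, so these tests are not a check on unseen data.

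The series has 3 strains that differ in which protein bears an auxin-inducible degron, a tag that sends its carrier to the proteasome once the plant hormone auxin is given. Strain ESC332 carried the tag on RPOA-2, which belongs to RNA polymerase I, the enzyme that transcribes ribosomal RNA. Strain ESC422 carried it on GRWD-1 and strain ESC420 on TSR-2, both chaperones of ribosome assembly. Late L4 animals of each strain spent 18 h at 20 °C in the presence of 1 mM auxin or of the ethanol that dissolves it, so the ethanol controls carried the same degron, and 20 gonads made up each library. The 19 libraries comprised 4 ethanol and 4 auxin libraries for RPOA-2, 3 and 3 for GRWD-1, and 2 and 3 for TSR-2. The labels name neither the promoter that drives the auxin receptor nor any auxin-treated animals without a degron, so depletion of the tagged protein and exposure to auxin itself cannot be told apart. They give separate samples of gonads but do not say whether these came from separate cultures, so p-values measure the spread between these samples.

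Glutathione is a small thiol peptide that neutralises oxidants and electrophiles. GCS-1, the glutamate-cysteine ligase catalytic subunit, performs the rate-limiting step of its synthesis, and glutathione S-transferases join the finished peptide to reactive compounds so that they can be cleared. SKN-1, a relative of the mammalian Nrf proteins, is the transcription factor best known for switching on gcs-1 and gst-4 in the worm intestine under oxidative stress. It is also a maternal protein that specifies early embryonic cell fates, and its mRNA is made in the germ line and placed in oocytes. The ubiquitin ligase adaptor WDR-23 keeps SKN-1 low in unstressed worms.

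Protein-coding counts totalled 1582308 to 8012912 per RPOA-2 library and 2031037 to 8526501 per GRWD-1 library. The limit that a count of 0 allows, taken as 3 counts, corresponds to a CPM (counts scaled to library size) of 0.341 to 1.96 and 0.400 to 1.44 in these libraries. TSR-2 libraries were present only in a table of fractional counts, with 43631 to 3950204 counts on protein-coding genes. TSR-2 auxin replicate 3 had the 43631, and its limit was 59.1 CPM, above every level of gst-24 and gst-7 in the series, so a 0 there does not show absence of either. All 10 germ line markers (such as glh-1, pgl-1 and gld-1) were detected in every library, with summed levels of 6562 to 10144 CPM in the RPOA-2 and GRWD-1 libraries. Markers of intestine, muscle and hypodermis were also present. These are bulk samples, in which fewer cells of a type and less RNA per cell cannot be told apart.

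In ethanol-treated gonads gst-1, skn-1, gcs-1 and gst-7 were the well-detected members, and the other 6 were near the limit of detection or variable. Levels of different genes are compared here as CPM per kb of exon. gst-1, a pi-class transferase, was the highest member in all 3 strains, at 311 ± 27.3 CPM per kb (SD, n = 4) in RPOA-2, 369 ± 69.7 (n = 3) in GRWD-1 and 447 ± 55.4 (n = 2) in TSR-2. skn-1 came next, at 85.0 ± 6.56, 102 ± 37.98 and 106 ± 19.8 CPM per kb, and its libraries overlapped those of neither gst-1 nor the gene below it in any strain. gst-7 and gcs-1 followed, at 49.8 ± 12.4 and 37.9 ± 3.73 CPM per kb in RPOA-2, 33.2 ± 12.7 and 45.2 ± 5.47 in GRWD-1, and 36.8 ± 5.59 and 47.1 ± 9.69 in TSR-2. Their order switched between strains, and their libraries overlapped in each, so the pair was not separated. gst-24 averaged 3.86 ± 4.31 CPM per kb in RPOA-2, 16.2 ± 13.4 in GRWD-1 and 7.24 ± 2.04 in TSR-2. The remaining members, gst-4, gst-5, gst-10, gst-36 and gst-42, each averaged at most 4.18 CPM per kb, and neighbours among them overlapped in every strain.

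gst-24 (WBGene00001772, WBcel235 chromosome II 13610443 to 13611366, minus strand) had the largest log2 change of the members that passed the low-count filter in the RPOA-2 and GRWD-1 strains. Its levels in the 4 RPOA-2 ethanol libraries were 2.63, 7.35, 1.42 and 0 CPM, and in the 4 auxin libraries 44.2, 41.2, 55.5 and 23.9 CPM. All 4 auxin libraries lay above all 4 ethanol libraries. The means were 2.85 ± 3.18 and 41.2 ± 13.1 CPM (SD, n = 4 and 4), a log2 change of 3.58 ± 0.60 (SE), the 2nd largest rise of 7881 genes in that fit; these are the values for which the gene was chosen. In same-numbered libraries the ratio of auxin to ethanol was 16.8, 5.61 and 39.1 for replicates 1 to 3, and at least 12.2 for replicate 4, where the ethanol library had no count and its limit of 3 counts was used. Those floors cover counting error only, because PCR reads without molecular identifiers are not independent molecules.

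The choice of gst-24 named only RPOA-2 values, but it was made with results of the series known. In the GRWD-1 strain gst-24 was at 11.5, 2.32 and 22.2 CPM in ethanol and at 45.2, 12.9 and 51.0 CPM in auxin. The groups overlapped, because auxin replicate 2 lay below ethanol replicate 3. Within each number, however, auxin was the higher library, by 3.92-fold, 5.58-fold and 2.30-fold. The means were 12.004 ± 9.93 and 36.4 ± 20.5 CPM (SD, n = 3 and 3). Without a replicate term the log2 change was 1.59 ± 0.64 (SE) and did not pass (adjusted p 0.215, edgeR quasi-likelihood test with Benjamini-Hochberg adjustment). It ran from 1.09 without ethanol replicate 2 to 2.39 without ethanol replicate 3, and did not pass in either (adjusted p 0.435 and 0.173, edgeR). With replicate number as a block, gst-24 rose by 1.72 ± 0.31 (adjusted p 0.00347, edgeR), higher in 3 of 3 pairs. The block assumes that same-numbered libraries are pairs, which the labels do not say. Over 19 fits of this comparison the adjusted p from edgeR or DESeq2 ran from 9.42e-05 to 0.435, and it was under 0.05 in 7. These were the 6 fits that held the block and the unblocked fit without a low-count filter (adjusted p 0.000776, edgeR). The block fits beyond the first reuse its libraries and were added after seeing the data, so they are not independent support. Over all genes the block moved the number called from 187 to 975 of 6948. Depth and muscle markers separated these groups. Auxin libraries held 4229644 to 8526501 counts and ethanol libraries 2031037 to 2993987, and the 5 body wall muscle markers, all detected in every library, summed to 192 to 248 CPM in auxin and 140 to 177 CPM in ethanol. Summed intestinal markers were at 492 to 1854 and 854 to 4581 CPM, with overlap, and with the block 3 of 5 tested, vit-2, vit-5 and vit-6, fell, by 1.02, 0.88 and 0.89 on the log2 scale (adjusted p 0.0155, 0.0110 and 0.0252, edgeR). The part of depth and of these markers in the gst-24 and gcs-1 values was not tested.

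In the TSR-2 strain gst-24 stood at 4.28 and 6.42 CPM in ethanol and at 11.6, 9.34 and 0 CPM in auxin, the 0 being the shallow replicate 3. Both well-sequenced auxin libraries lay above both ethanol libraries. The log2 change was 0.88 ± 0.73 (SE) and did not pass (adjusted p 0.617, edgeR); without auxin replicate 3 it was 0.98 (adjusted p 0.498). The difference between the GRWD-1 and TSR-2 changes was 0.67 ± 0.98 on the log2 scale (adjusted p 0.985, edgeR interaction), so a difference between these strains was not detectable.

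**Figure D1:**
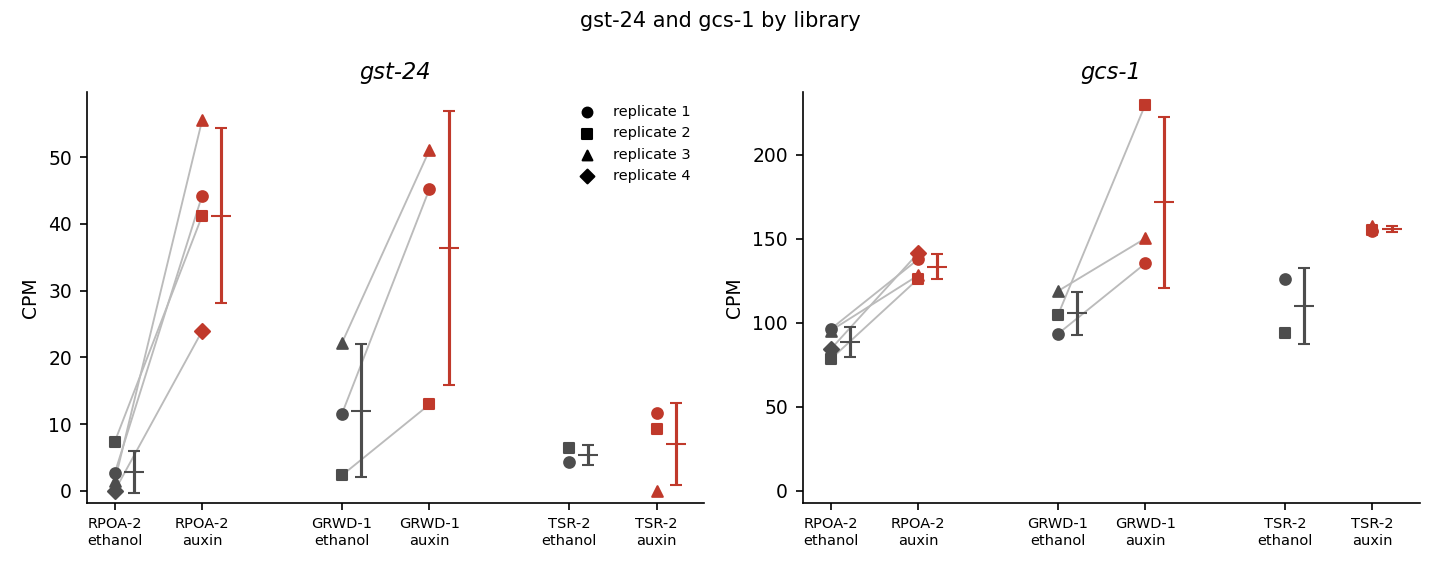
Levels of gst-24 (left) and gcs-1 (right) in CPM, by strain and treatment. Points are libraries with a marker for each replicate number, grey lines join same-numbered libraries of the RPOA-2 and GRWD-1 strains, and crosses with bars are the mean ± SD. For gst-24 every line goes up in both strains, and the GRWD-1 groups overlap; for gcs-1 all auxin points lie above all ethanol points within each strain, that of TSR-2 auxin replicate 3 resting on 8 counts.

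gcs-1 (WBGene00001527, chromosome II 9035562 to 9038301, minus strand) was higher in every auxin library than in every ethanol library of its strain, with the exception that in TSR-2 the value of auxin replicate 3 rests on 8 counts. In RPOA-2 the ethanol libraries held 96.1, 78.2, 95.2 and 84.2 CPM and the auxin libraries 138, 126, 128 and 141 CPM. The means were 88.4 ± 8.70 and 133 ± 7.37 CPM, a log2 change of 0.58 ± 0.10 (SE), described without a test. The separation between these groups exceeded their spread, and the ratio per pair was 1.35 to 1.68.

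In GRWD-1 gcs-1 was at 93.3, 104.3 and 118.7 CPM in ethanol and at 135, 230 and 150 CPM in auxin. Auxin replicate 2 was the high library, and the groups did not overlap. The means were 105 ± 12.8 and 172 ± 50.8 CPM, and the log2 change of 0.67 ± 0.20 (SE) did not pass without the block (adjusted p 0.0881, edgeR). It passed with the block, as a rise of 0.65 ± 0.15 (adjusted p 0.0149, edgeR; higher in 3 of 3 pairs). Without replicate 2 the blocked log2 change was 0.41 and no longer passed (adjusted p 0.132, edgeR), so that call rests on replicate 2. The adjusted p ran from 0.000335 to 0.251 over the 19 fits and was under 0.05 in 7 of them.

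In TSR-2 gcs-1 was at 126 and 94.1 CPM in ethanol and at 154, 155 and 158 CPM in auxin. The 158 CPM came from 8 counts, with an exact Poisson interval of 68.0 to 310.5 CPM for counting error, so its place above the ethanol libraries is within that error. The log2 change was 0.49 ± 0.25 (SE) and did not pass (adjusted p 0.325, edgeR). The GRWD-1 change minus the TSR-2 change was 0.21 ± 0.34 (adjusted p 0.996, edgeR interaction).

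The low-count filter left 5 members in GRWD-1 (gst-1, gst-7, gst-24, gcs-1 and skn-1), and 0 of these 5 were called at an adjusted p under 0.05 without the block (edgeR), where 2.69% of all genes were called. Of these, 2 had an unadjusted p under 0.05, as did 17.8% of all genes, and DESeq2 called 0, where it called 5.34% of its genes. With the block 2 of 5 were called, gst-24 and gcs-1, both higher, where 7.18% of all genes were called higher. The same 5 passed the filter in TSR-2, with 0 called by edgeR, where 2.55% of all genes were called, and 1 with an unadjusted p under 0.05, as had 16.5% of all genes. DESeq2 gave an adjusted p to 3 of these and called 0, against 1.52% of its genes, and without auxin replicate 3 edgeR called 0, against 0.0885%. For the difference between GRWD-1 and TSR-2, edgeR tested 7 members and called 0, with 0 at an unadjusted p under 0.05. It called 0% of all 8757 genes, 384 of which had an unadjusted p under 0.05. DESeq2 gave an adjusted p to 2 members, gst-1 and skn-1, and called 0, with 1 member at an unadjusted p under 0.05; it called 16 of 999 genes (1.60%). In RPOA-2 the filter left 6 members, the 5 above and gst-5. Members were non-overlapping and higher in auxin for 2 of 6 in RPOA-2 (7.54% of all genes), 1 of 5 in GRWD-1 (13.2%) and 1 of 5 in TSR-2 (10.9%). The RPOA-2 count includes gst-24 itself, and nothing is read from it. In TSR-2, 2 of 5 were non-overlapping and lower (19.6% of all genes), gst-1 and gst-7, each with its lowest value in the shallow auxin replicate 3. The median log2 change of the members that passed was 0.19, 0.26 and 0.06 in RPOA-2, GRWD-1 and TSR-2, beside -0.015, -0.0017 and -0.034 over all genes tested. The RPOA-2 median includes gst-24 with the values for which it was chosen, so nothing is read from that median either.

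**Figure D2:**
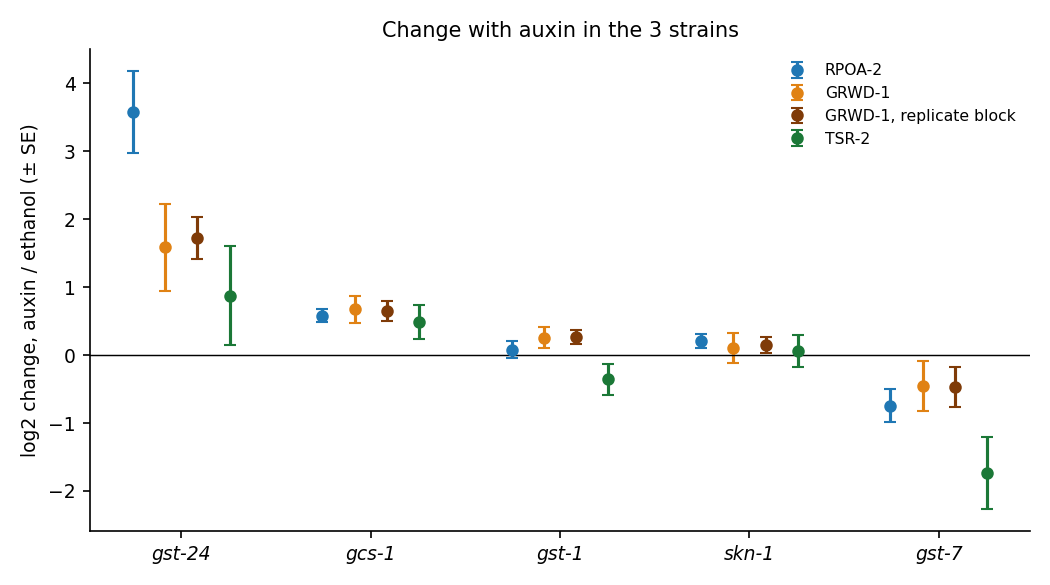
Log2 change from ethanol to auxin with its SE for the 5 members that passed the low-count filter in every strain, from edgeR fits within each strain, and for GRWD-1 also with replicate number as a block. gst-24 and gcs-1 lie above 0 in all 3 strains, gst-7 lies below 0 in all 3, and skn-1 lies within 0.06 to 0.21.

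skn-1 (WBGene00004804, chromosome IV 5651039 to 5660384, minus strand) showed little difference in transcript level. The RPOA-2 means were 252 ± 19.4 CPM in ethanol and 293 ± 36.8 CPM in auxin (n = 4 and 4; log2 change 0.21), with overlapping libraries. In GRWD-1 they were 300.5 ± 112 and 329 ± 49.5 CPM over 3 and 3 libraries (log2 change 0.11 ± 0.22, adjusted p 0.843 by edgeR). In TSR-2 they were 313 ± 58.7 and 311 ± 57.5 CPM over 2 and 3 libraries (log2 change 0.06 ± 0.23, adjusted p 0.934 by edgeR). The widest spread was among GRWD-1 ethanol libraries, at 211, 427 and 264 CPM, and there auxin was higher in 2 of 3 pairs. The sign of the estimate turned without ethanol replicate 1 in GRWD-1, and in TSR-2 without single libraries or with RLE size factors or DESeq2. SKN-1 is controlled largely at the level of its protein, which RNA counts do not measure. A stretch of 41 bp, 1.39% of skn-1's exon length, overlaps csn-5 on the other strand.

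gst-1 (WBGene00001749, chromosome III 9059331 to 9060181, plus strand), the most abundant member, differed in the sign of its estimate between strains, and neither the GRWD-1 nor the TSR-2 difference passed as fitted without the block. In GRWD-1 it passed with the block and total counts together (adjusted p 0.0460, edgeR). In RPOA-2 it averaged 233 ± 20.4 CPM in ethanol and 247 ± 47.9 CPM in auxin (log2 change 0.083), with auxin higher in 2 of 4 pairs. In GRWD-1 it was at 218, 319 and 292 CPM in ethanol and at 304, 372 and 333 CPM in auxin. Auxin was higher in 3 of 3 pairs while the groups overlapped (log2 change 0.26 ± 0.16 SE, adjusted p 0.427, edgeR). In TSR-2 it was at 364 and 305 CPM in ethanol and at 257, 293 and 177 CPM in auxin, the last of these from 9 counts. All 3 auxin libraries lay below both ethanol libraries (log2 change -0.36 ± 0.23 SE, adjusted p 0.470, edgeR). The 177 CPM had an exact Poisson interval of 81.1 to 336.5 CPM for counting error, so its place below both ethanol libraries is within that error. The GRWD-1 change minus the TSR-2 change was 0.62 ± 0.31 (adjusted p 0.979, edgeR interaction).

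gst-7 (WBGene00001755, chromosome II 4882062 to 4883358, plus strand) was the well-detected member whose estimate was lower in auxin in all 3 strains. Its RPOA-2 ethanol libraries held 26.3, 44.7, 44.9 and 32.6 CPM and the auxin libraries 26.1, 16.6, 27.1 and 20.8 CPM. Auxin was lower in all 4 pairs, but by only 0.249 CPM in replicate 1, and the groups overlapped (log2 change -0.75 ± 0.24 SE, no test). Estimates in RPOA-2 were also negative for 7 of 7 intestinal, 5 of 6 gonadal sheath, 5 of 5 muscle, 4 of 4 neuron and 2 of 2 sperm markers that passed the filter. They were negative for 1 of 3 hypodermis and 2 of 10 germ line markers, and for 4067 of all 7881 genes. In GRWD-1 the gst-7 means were 24.7 ± 9.43 CPM in ethanol and 18.3 ± 6.34 CPM in auxin, with overlap (log2 change -0.46 ± 0.37 SE, adjusted p 0.568, edgeR). In TSR-2 gst-7 was at 24.5 and 30.4 CPM in ethanol and at 8.86, 8.43 and 0 CPM in auxin. The 2 well-sequenced auxin libraries lay far below the ethanol pair, but the log2 change of -1.74 ± 0.53 (SE) missed the threshold (adjusted p 0.0704, edgeR), and it was -1.66 without auxin replicate 3 (adjusted p 0.120, edgeR). Summed intestinal markers were also lower in TSR-2 auxin libraries, at 197 to 840 CPM against 1115 to 1891 CPM in ethanol. So were summed gonadal sheath markers, at 31.5 to 44.6 against 71.9 to 94.4 CPM, and sperm markers, at 0 to 1.96 against 8.89 to 17.6 CPM. Sums of muscle, hypodermis, neuron and germ line markers overlapped. Up to 7 sperm markers were at 0 in an auxin library and up to 2 in an ethanol library. In the 2 deeper auxin libraries 3 and 4 of 10 intestinal and 1 and 2 of 7 sheath markers were at 0, against up to 2 of each in ethanol. In the shallow replicate 3 the intestinal and sheath numbers were 7 and 6. The yolk protein gene vit-5, an intestinal marker, fell by 1.38 on the log2 scale (adjusted p 0.0034, edgeR), and the germ line marker syp-1, a synaptonemal complex gene, rose by 1.10 (adjusted p 0.0113, edgeR). Neither passed without auxin replicate 3 (adjusted p 0.0591 and 0.0719, edgeR). They were the 1 called of 4 intestinal markers tested and the 1 called of 10 germ line markers tested. All 4 intestinal estimates were negative, while the germ line list had 6 positive and 4 negative, with a median of 0.09. The part of the markers in the lower gst-7 was not tested in any strain.

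**Figure D3:**
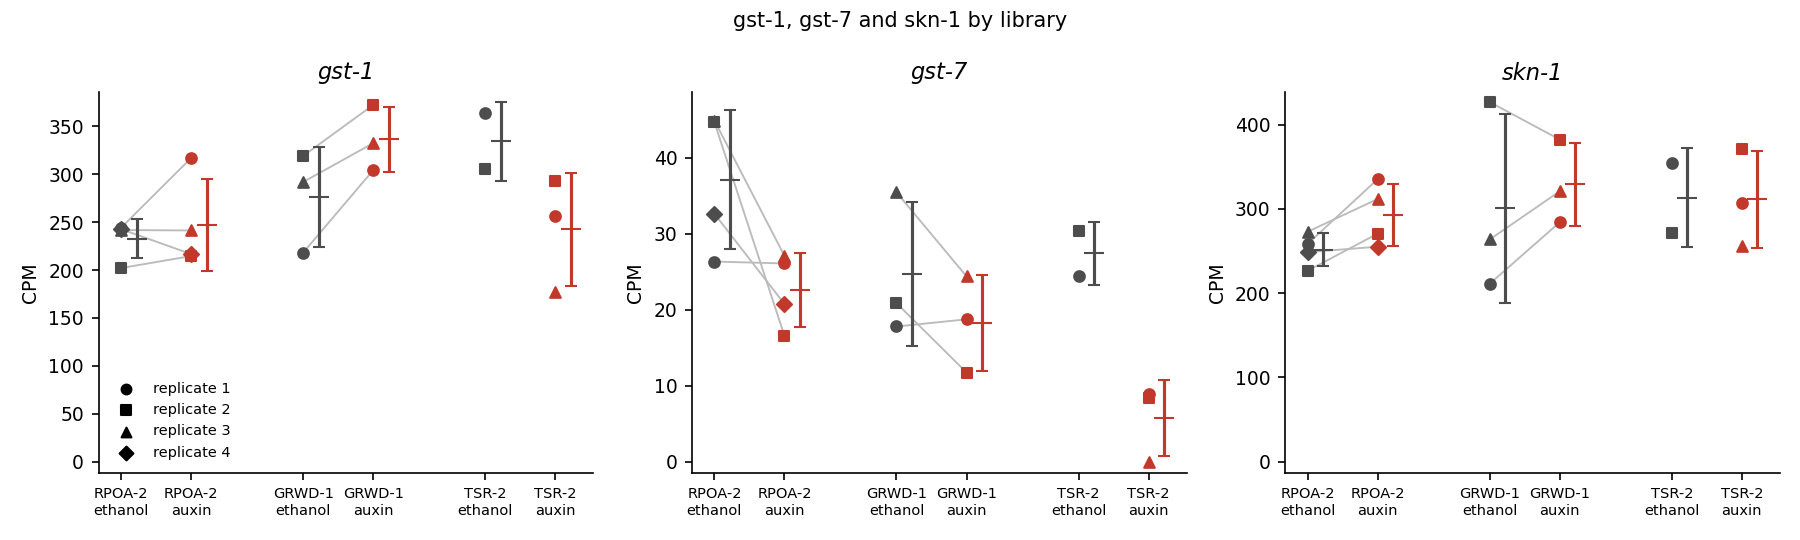
Levels of gst-1, gst-7 and skn-1 in CPM, by strain and treatment. Points are libraries with a marker for each replicate number, grey lines join same-numbered libraries of the RPOA-2 and GRWD-1 strains, and crosses with bars are the mean ± SD. In TSR-2 gst-7 is at 8.43 and 8.86 CPM in the 2 deeper auxin libraries and at 24.5 and 30.4 CPM in ethanol, the 0 of auxin replicate 3 lying in a library with a limit of 59.1 CPM, and skn-1 overlaps between treatments in all 3 strains.

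The other 5 transferases were scarcely detected in gonads. gst-4 (WBGene00001752, chromosome IV 10142225 to 10143099, plus strand) is the gene behind the most widely used reporter of SKN-1 activity. It had 48 counts in all over the 14 RPOA-2 and GRWD-1 libraries, 29 of them in RPOA-2 ethanol replicate 2. Its levels were 0.329, 5.76, 0 and 1.30 CPM in RPOA-2 ethanol, 0.189, 0.908, 0.896 and 0.399 CPM in RPOA-2 auxin, and at most 0.481 CPM in any GRWD-1 library. No auxin library of these strains reached 1 CPM, in gonads where gst-24 reached 55.5 CPM. gst-4 also shares 65 bp, 8.89% of its exon length, with dhs-12 on the same strand, so its few reads could be split between them.

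gst-5 (WBGene00001753, chromosome II 10950352 to 10951603, plus strand) was the only one of these 5 to pass the filter in RPOA-2, at 3.03 ± 1.49 CPM in ethanol and 3.59 ± 1.05 CPM in auxin (log2 change 0.16 ± 0.56 SE). Without ethanol replicate 2 that log2 change was 0.61. gst-36 (WBGene00001784, chromosome X 9861646 to 9862960, minus strand) averaged 1.43 ± 1.80 and 1.31 ± 0.87 CPM in RPOA-2. gst-42 (WBGene00001790, chromosome X 11726264 to 11727936, minus strand), whose product resembles the maleylacetoacetate isomerase of tyrosine breakdown, averaged 1.51 ± 1.85 and 1.18 ± 0.42 CPM. None of these means stood apart from the spread. In GRWD-1 gst-5, gst-36 and gst-42 each averaged under 1 CPM in both treatments. gst-5 shares 12 bp with nos-1 and gst-36 shares 93 bp with scav-5, each on the other strand.

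gst-10 (WBGene00001758, chromosome V 2561690 to 2564645, plus strand), whose worm enzyme conjugates the lipid peroxidation product 4-hydroxynonenal, depended on how reads were counted. Over the 12 libraries held in both tables it had 30 counts in the protein-coding table and 268 when multi-mapping reads were divided, a ratio of 8.93. The same ratio was 1.00 to 1.06 for gst-1, gst-5, gst-7, gst-24, gst-42, gcs-1 and skn-1, 1.34 for gst-36 and 0.756 for gst-4. The level of gst-10 is therefore uncertain.

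RPOA-2 ethanol replicate 2 stood apart from the other libraries. There 6 of the 10 members (gst-4, gst-5, gst-10, gst-24, gst-36 and gst-42) had the highest level of their group, and that library held 59.1% to 90.6% of the group's counts for each. The library was also the deepest of its group. It held 34.1% to 34.9% of the counts of gst-1, gcs-1 and skn-1, whose CPM were lowest there. Its summed body wall muscle markers reached 1484 CPM against 234 to 272 CPM in the other RPOA-2 ethanol libraries, hypodermis 295 against 26.3 to 50.2 CPM, and intestine 34207 against 1607 to 20480 CPM. Germ line markers summed to 6562 CPM there, the lowest of the group, against 7974 to 8337 CPM. Their part in the members' levels was not tested. Without this library the log2 change of gst-24 in RPOA-2 was 4.69 in place of 3.58. RPOA-2 replicate 4 has library numbers among those of the GRWD-1 and TSR-2 libraries, apart from the other RPOA-2 replicates. What these numbers mark is not stated. Replicate 4 had high intestinal sums in both treatments, 20480 CPM in ethanol and 20676 CPM in auxin, with elt-2 at 0 in both. Its muscle sums were 234 and 299 CPM, and gst-24 was at 0 and 23.9 CPM in the same libraries. Whether intestinal RNA bears on gst-24 was not tested.

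**Figure D4:**
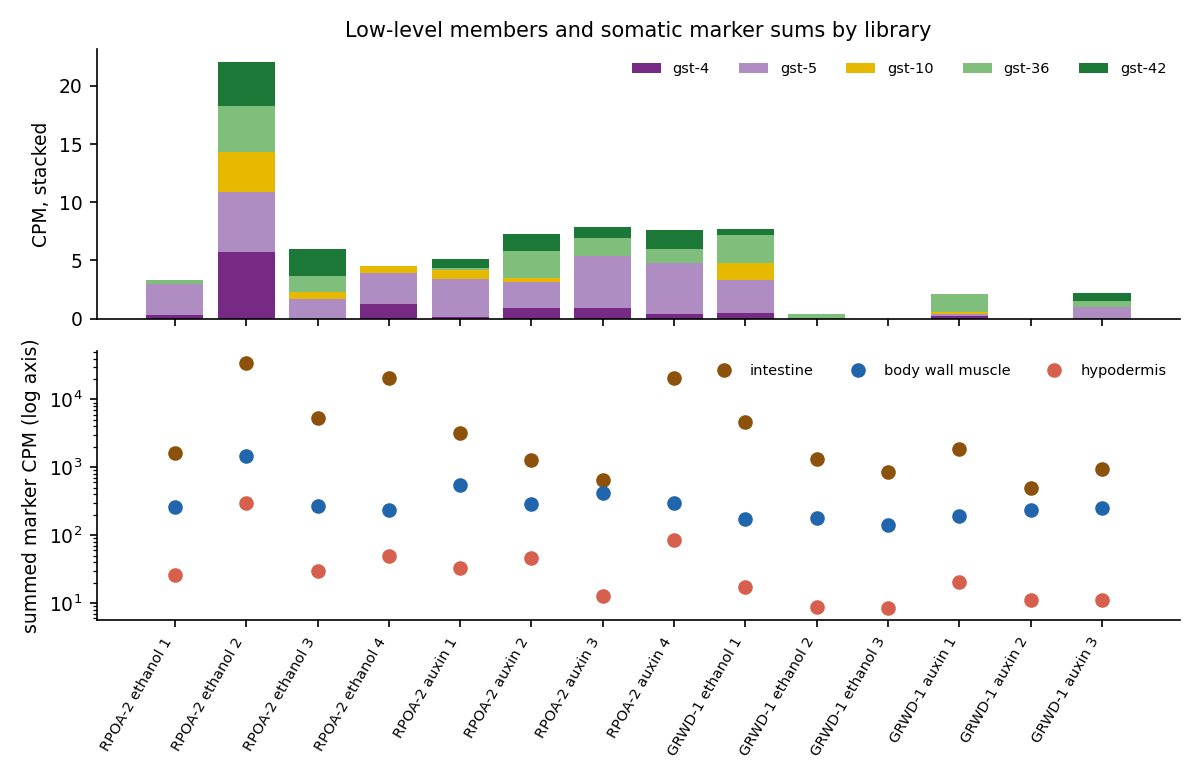
Upper panel, stacked levels in CPM of the 5 scarcely detected transferases in each RPOA-2 and GRWD-1 library. Lower panel, summed CPM of intestine, body wall muscle and hypodermis markers in the same libraries on a log axis. RPOA-2 ethanol replicate 2 is the highest library in the upper panel and for all 3 marker sums.

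The neighbours of gst-24 did not share its levels. gst-24 lies in a run of 9 transferase genes on the minus strand of chromosome II, 13608154 to 13630887, a span of 22.7 kb. In order along the chromosome these are gst-20, gst-24, gst-15, gst-14, gst-12, gst-16, gst-19, gst-17 and gst-18. Over the 14 libraries of the protein-coding table gst-24 had 1571 counts, and the other 8 had 4 to 126 counts each. The highest group mean among those 8 was 2.73 CPM, for gst-20 in RPOA-2 ethanol, and none of the 8 passed the low-count filter in RPOA-2 or GRWD-1. gst-20, whose start lies 2.29 kb from that of gst-24, averaged 2.73 ± 1.84 CPM in RPOA-2 ethanol and 0.790 ± 0.805 CPM in auxin. gst-15, on the other side, averaged 1.55 ± 1.19 and 0.547 ± 0.578 CPM. Both means were lower in RPOA-2 auxin, where gst-24 averaged 41.2 CPM. In GRWD-1 gst-15 averaged 0 CPM in ethanol and 0.832 ± 0.259 CPM in auxin, and gst-14 0.449 ± 0.484 and 1.95 ± 2.51 CPM. For gst-24 the ratio of fractional to protein-coding counts was 1.00, so dividing multi-mapping reads made little difference to it.

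**Figure D5:**
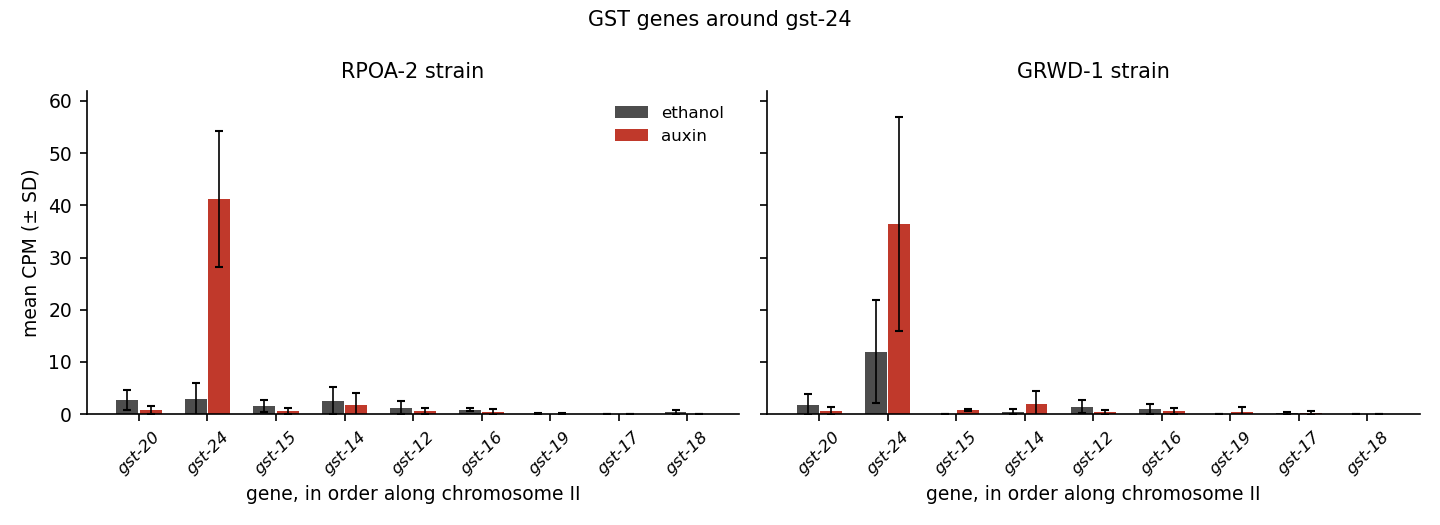
Mean level in CPM with its SD for the 9 neighbouring transferase genes on chromosome II, in order along the chromosome, in ethanol (grey) and auxin (red) libraries of the RPOA-2 strain (left, n = 4 and 4) and the GRWD-1 strain (right, n = 3 and 3). Bars of gst-24 reach 41.2 and 36.4 CPM in auxin, and no other gene averages more than 2.73 CPM.

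Another 41 glutathione S-transferase genes were examined in the protein-coding counts of RPOA-2 and GRWD-1. Only gsto-3, an omega-class transferase, reached a group mean of 10 CPM there, and 37 stayed under 5 CPM in every group of these strains. gsto-3 went the other way from gst-24. It averaged 15.7 ± 3.24 CPM in RPOA-2 ethanol and 8.36 ± 3.19 CPM in auxin, and 16.1 ± 2.72 and 6.07 ± 0.956 CPM in GRWD-1. In GRWD-1 its log2 change of -1.43 ± 0.45 (SE) did not pass without the block (adjusted p 0.113, edgeR), and with the block it fell by 1.43 (adjusted p 0.0459, edgeR). It was the 1 called of 3 genes tested with the block, where 14% of all genes were called. In TSR-2 its log2 change was -0.48 ± 0.68 (adjusted p 0.791, edgeR). gst-27, the next most abundant, averaged 2.57 ± 1.61 and 3.18 ± 1.06 CPM in GRWD-1.

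The rest of the pathway was tested from lists of regulators and partner enzymes. Counts for these lists stand beside shares over all genes in GRWD-1 and TSR-2. An unadjusted p under 0.05 was found for 17.8% and 16.5% of genes, and edgeR called 2.69% and 2.55% without the block. With the block in GRWD-1 edgeR called 14% of genes. By list it called 0 of 16 SKN-1 regulators, 1 of 9 glutathione genes and 0 of 7 thioredoxin and peroxiredoxin genes. It called 0 of 3 dismutases and catalases and 1 of 6 other stress transcription factors. A call of 1 among 9 or 6 genes is near that share, and nothing is read from it. Of 16 regulators of SKN-1, all 16 were tested in GRWD-1 and in TSR-2 and 0 were called in either by edgeR, with 1 at an unadjusted p under 0.05 in each and medians of 0.02 and -0.07 on the log2 scale. DESeq2 gave an adjusted p to 15 and 8 of them and called 0. wdr-23, the SKN-1 repressor, averaged 114 ± 10.3 and 100.1 ± 15.1 CPM in GRWD-1 (log2 change -0.22 ± 0.16 SE, adjusted p 0.500, edgeR). sel-1 and sel-11, components of the endoplasmic reticulum degradation machinery that SKN-1 passes through, had log2 changes of -0.11 and 0.32 in GRWD-1 and of -0.0049 and -0.07 in TSR-2 (adjusted p 0.452 to 0.994, edgeR).

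Of 15 genes of glutathione synthesis and recycling, 9 were tested in GRWD-1 and 8 in TSR-2, and 0 were called in either by edgeR, with 2 and 1 at an unadjusted p under 0.05 and medians of 0.20 and -0.14. DESeq2 gave an adjusted p to 8 and 2 of them and called 0. glrx-3, a glutaredoxin, averaged 134 ± 21.035 and 199 ± 44.05 CPM in GRWD-1. It passed with the block as a rise of 0.53 (adjusted p 0.00954, edgeR) and not without it (adjusted p 0.193, edgeR). It was the 1 called of 9 tested with the block, where 14% of all genes were called. gss-1, glutathione synthetase, the enzyme that follows GCS-1, averaged 53.5 ± 8.19 and 47.3 ± 7.14 CPM in GRWD-1 (log2 change -0.20 ± 0.20 SE, adjusted p 0.664, edgeR). gsr-1, glutathione reductase, was at 127 ± 13.9 and 99.9 ± 1.44 CPM (log2 change -0.37 ± 0.15 SE, adjusted p 0.216, edgeR). Within GRWD-1 the 2 enzymes of glutathione synthesis, gcs-1 and gss-1, thus had estimates of opposite sign. Only that of gcs-1 passed, with the block, and their difference was not tested. In the other strains gss-1 had the sign of gcs-1, at 0.17 in RPOA-2 (no test) and 0.15 ± 0.33 in TSR-2 (SE, adjusted p 0.881, edgeR).

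Thioredoxin and peroxiredoxin genes (7 of 11 tested in each strain) and superoxide dismutases and catalases (3 of 8 in GRWD-1, 4 of 8 in TSR-2) had 0 calls by edgeR. DESeq2 called 0 of the 7 and 3 it could adjust in GRWD-1 and 0 of 2 thioredoxin genes in TSR-2, where it gave no dismutase or catalase an adjusted p. At an unadjusted p under 0.05 there were 0 and 1 of the thioredoxin group in GRWD-1 and TSR-2, and 1 and 0 of the dismutase group. prdx-2, a peroxiredoxin, averaged 192 ± 51.6 and 168 ± 23.5 CPM in GRWD-1 (adjusted p 0.580, edgeR), and trxr-1, thioredoxin reductase, 169 ± 1.20 and 202 ± 20.0 CPM (adjusted p 0.443, edgeR). sod-2 and sod-1, the mitochondrial and the cytosolic superoxide dismutase, had log2 changes of -0.22 and 0.22 in GRWD-1 (adjusted p 0.639 and 0.713, edgeR). A further 4 genes used as readouts of SKN-1, nit-1, sdz-8, dhs-8 and ugt-13, were too low to be tested in any strain, and the more abundant of them, dhs-8, averaged at most 1.76 CPM in a group.

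Of 8 other stress transcription factors 6 were tested in each of GRWD-1 and TSR-2. In GRWD-1 0 were called by edgeR without the block or by DESeq2, with 1 at an unadjusted p under 0.05. With the block atfs-1, the factor of the mitochondrial unfolded protein response, fell by 0.43 (adjusted p 0.0283, edgeR). It was the 1 called of 6 tested, where 14% of all genes were called. In TSR-2 hif-1, the hypoxia-inducible factor, fell by 1.79 ± 0.44 on the log2 scale (SE; adjusted p 0.0243, edgeR), from 44.6 ± 8.13 to 9.20 ± 9.13 CPM (n = 2 and 3). Without auxin replicate 3 its log2 change was -1.72 and it no longer passed (adjusted p 0.104, edgeR).

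Likeness to gst-24 was measured as Pearson's r of log2(CPM + 1) over the 14 RPOA-2 and GRWD-1 libraries, for 5677 genes with a mean of at least 10 CPM. These libraries share strains, treatments and replicate numbers, so r is a description. The 5 genes most like it were Y66D12A.10 (r 0.926), pph-4.2, a protein phosphatase gene (0.879), cblc-1 (0.864), rmif-2 (0.863) and Y71F9AL.8 (0.850). Y71F9AL.8 averaged 22.1 CPM in ethanol and 100.5 CPM in auxin in RPOA-2 and 39.6 and 93.5 CPM in GRWD-1. The genes were picked on these libraries, so no test of them there is given. In TSR-2, whose libraries were not used for r, Y66D12A.10 rose by 1.27 on the log2 scale (adjusted p 0.0247, edgeR), but without auxin replicate 3 edgeR called 0 genes higher in that strain. No member of the glutathione pathway was among the 5. Only 5 of 5677 genes were named, so nothing is read from that.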

How the data were processed

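Gonad RNA had been made into libraries with a stranded kit and PCR, per the labels' protocols. The authors deposited whole-number counts per protein-coding gene, without normalization, for RPOA-2 and GRWD-1 (14 libraries), and expected counts, in which multi-mapping reads are divided, for 46930 features in 17 libraries. Trim Galore 0.6.10, HISAT2 2.2.1, Picard, featureCounts 2.0.6 and build WBcel235 appear in the submitters' processing notes, and their settings, strand included, are not given in the sources used here.

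Auxin was compared with ethanol within strains using edgeR 4.0.16 in R 4.3.3 (filterByExpr, TMM, quasi-likelihood test, Benjamini-Hochberg adjustment over all genes tested, adjusted p under 0.05). RPOA-2 and GRWD-1 used the protein-coding counts. TSR-2 and its contrast with GRWD-1 used protein-coding rows of the fractional table, rounded to whole numbers. CPM were TMM-scaled over all libraries of a table, and each SE was derived from the log2 change and its F statistic. The scripts were tested on simulated data. DESeq2 1.42.0, other scalings, no filter, a replicate block and leaving out each library were tried. Low-count filters pass a gene that is high in 1 group only, so numbers of members that passed carry no weight.

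Same-numbered ethanol and auxin libraries deviated together from their group means across genes in every pair of GRWD-1 (r 0.241 to 0.463) and RPOA-2 (0.179 to 0.297). Different-numbered libraries ran from -0.452 to 0.138 in GRWD-1, below every same-numbered pair. In RPOA-2 they ran from -0.449 to 0.309 (mean -0.075, against 0.238 for the same number), so the 2 kinds overlapped. Deviations within a group sum to 0, so positive same-numbered values push the different-numbered ones down, and the 2 ranges are not independent evidence. Taking the numbers as pairs is therefore an assumption, with the 2 kinds apart only in GRWD-1, and the labels do not say what the numbers mark. In TSR-2 the mean was -0.126 over 2 pairs, and 2 ethanol libraries are too few to judge pairing.

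The members and lists were chosen with earlier results of these data known. From each pathway list (not the marker lists) the genes called were named, or the 2 most abundant where none was, and wdr-23, gss-1, gsr-1, trxr-1, prdx-2 and sod-1 always. Genes called only with the block were named after their values were seen. No sequence is printed, since none was used here.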

Additional observations from a re-analysis of the deposited data

Results flagged for a closer look

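Of 20 sets of 4 libraries examined for the members, 1 held a library far from the rest, and chance flags about 1 such set in 20. gst-1 was at 202 CPM in RPOA-2 ethanol replicate 2, against 242 to 244 CPM in the other 3 libraries of that group. The gap was 0.942 of the group's range, above Dixon's critical value. This is the library with the highest summed muscle, hypodermis and intestine markers of its group. Whether these markers bear on the lower gst-1 was not tested.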

How the results depend on the processing

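In GRWD-1, 0 members were called, beside 2.69% of all genes. This became 2 without a low-count filter (1.29% of all genes) and 1 with all groups in one fit (2.56%), namely gcs-1 (adjusted p 0.0424, edgeR). With the replicate block it was 2 (14%), with the block and total counts 3 (15.4%), and with the block and RLE size factors 2 (14.5%). With the block and 1 pair of libraries left out 1 to 2 were called (6.56% to 14.3% of all genes). Without the block 0 to 0 were called when single libraries were left out (0.316% to 1.68% of all genes). Combinations of the block with another choice were added after seeing the data. The third call under total counts was gst-1 (log2 change 0.31, adjusted p 0.0460, edgeR). The block by replicate number called no member in TSR-2 (1.79% of all genes) or in the contrast of the strains (0%). Leaving out libraries gave 0 to 0 member calls in TSR-2 (0.0885% to 6.41% of all genes) and in that contrast (0% to 0.00973%). The sign changed in these cases. Estimates of skn-1 in GRWD-1 ran from -0.067 (without ethanol replicate 1) to 0.46, skn-1 in TSR-2 from -0.054 to 0.28, with -0.0038 by DESeq2 and -0.00059 by RLE size factors, and in the contrast skn-1 ran from -0.11 to 0.41 and gcs-1 from -0.091 to 0.37. In RPOA-2, untested, gst-1 was -0.094 without auxin replicate 1 and gst-5 -0.012 without ethanol replicate 3. The cause was not tested. Of 320 values of single members under an alternative, 293 kept direction and side of the threshold (or moved by less than the spread, where untested), 15 passed where they had not, 2 moved, both in RPOA-2 without ethanol replicate 2, and 10 reversed among the tested ones. In TSR-2 163 genes were called, and 6 without auxin replicate 3, the library with 43631 counts; the cause was not tested.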
